A study of Mus musculus with 57 samples.

Results

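The 10 genes studied here, from the interleukin-1 system and the inflammasome, were followed through 2 experiments on CD11b-positive cells of mouse brain, which the labels annotate as microglia. The 10 genes were taken by symbol from the first column of each count table. They are the cytokines Il1a, Il1b and Il18, the receptor antagonist Il1rn, the receptors Il1r2 and Il1rap, the sensor Nlrp3, the caspases Casp1 and Casp4, and the pore-forming Gsdmd. All 10 were found among the 53278 genes of the LPS experiment and the 50565 genes of the sex experiment. All 10 passed the filter on low counts in each, among 15857 and 31709 genes tested.

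The animals were wild-type (WT) mice and littermates deficient in P2RY12 (KO), a receptor for extracellular nucleotides on microglia. Both genotypes enter every comparison of KO with WT, and no other allele is named in the labels. In the LPS experiment the groups are WT ns, WT LPS, KO ns and KO LPS. LPS is lipopolysaccharide, a cell-wall component of Gram-negative bacteria, given by an intraperitoneal dose of 1 mg/kg. What ns stands for is not defined there, nor are the age of the animals or the time between injection and cell isolation, and no sex is given for that experiment. The sex experiment holds 4 WT and 5 KO males with 4 WT and 5 KO females. Its animals carry no treatment label of their own, although the protocol text shared by all samples names the injection. The labels do not say whether a library is 1 animal or a pool in the LPS experiment, so its p-values measure the spread between these libraries, which may be technical.

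Interleukin-1 alpha and beta act through a receptor made of a ligand-binding chain and the accessory chain encoded by Il1rap. The antagonist encoded by Il1rn occupies that receptor without signalling, and the decoy receptor encoded by Il1r2 binds interleukin-1 without passing the signal on. Interleukin-1 beta and interleukin-18 are made as precursors that caspase-1 cleaves after assembly of an inflammasome, of which NLRP3 is a sensor. Caspase-4 of the mouse, also known as caspase-11, binds LPS in the cytosol, and gasdermin D, cut by these caspases, forms pores in the plasma membrane. In microglia and other myeloid cells, LPS is a classical inducer of Il1b and Nlrp3 transcription.

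Il1a, Il1b and Il1rn lie on chromosome 2 and Il1r2 on chromosome 1 of the build GRCm39. Il1a spans chr2:129141530-129151892, Il1b chr2:129206490-129213059 and Il1rn chr2:24226872-24241503. Il1r2 spans chr1:40123872-40164390, and Casp1 and Casp4 lie next to each other at chr9:5298517-5307281 and chr9:5308816-5336791. Il18 spans chr9:50466000-50493141, Il1rap chr16:26400259-26548878, Nlrp3 chr11:59432395-59457781 and Gsdmd chr15:75733990-75739257. These coordinates come from the table of the sex experiment, whose gene length equals the whole span. No gene overlapped Il1rn, Nlrp3 or Gsdmd. Other members overlapped other genes, whose reads may be counted for both. The overlapping gene Gm14023 had 97.9% as many counts as Il1a, Gm29941 had 110% as many as Il1b, Bco2 had 187% as many as Il18, and Gm53496 had 170% as many as Casp1 and 253% as many as Casp4. Levels are therefore not compared between genes.

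The stretches before the start sites of the 4 genes called after LPS in each genotype are shown, since the LPS results turn on these genes. They are the 250 bases before the first start listed for each gene by RefSeq on the build GRCm38.p6, 5′ to 3′ on the strand of the gene, with matches to the searched motifs in capitals. The motifs were that of NF-kappaB, TGANTCA of AP-1 and TTGCNNAA of C/EBP, on both strands.
Il1r2, chr1:40085843-40086092: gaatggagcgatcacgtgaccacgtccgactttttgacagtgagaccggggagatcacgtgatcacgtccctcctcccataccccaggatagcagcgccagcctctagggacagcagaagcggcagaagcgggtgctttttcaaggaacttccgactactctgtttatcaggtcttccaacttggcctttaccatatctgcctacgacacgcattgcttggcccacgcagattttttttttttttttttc
Il1b, chr2:129371140-129371389: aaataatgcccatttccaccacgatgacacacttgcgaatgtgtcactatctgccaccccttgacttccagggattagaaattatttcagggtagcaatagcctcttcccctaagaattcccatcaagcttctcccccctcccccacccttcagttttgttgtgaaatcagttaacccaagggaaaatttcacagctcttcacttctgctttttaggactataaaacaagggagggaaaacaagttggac
Il1rn, chr2:24336610-24336859: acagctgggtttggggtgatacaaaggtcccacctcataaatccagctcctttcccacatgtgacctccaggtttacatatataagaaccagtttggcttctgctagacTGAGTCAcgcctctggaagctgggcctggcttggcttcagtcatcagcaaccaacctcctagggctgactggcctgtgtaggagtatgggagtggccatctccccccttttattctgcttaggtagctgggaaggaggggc
Casp4, chr9:5308599-5308848: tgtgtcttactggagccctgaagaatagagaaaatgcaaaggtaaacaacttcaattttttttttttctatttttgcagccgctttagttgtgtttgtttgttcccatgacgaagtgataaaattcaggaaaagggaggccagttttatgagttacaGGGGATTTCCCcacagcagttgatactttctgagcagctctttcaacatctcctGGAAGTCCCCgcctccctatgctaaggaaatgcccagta
The Casp4 stretch held 3 NF-kappaB matches, of which the first pair overlap, and the Il1rn stretch held 1 AP-1 match. No match to these motifs was found in the Il1r2 and Il1b stretches. Of all 32851 stretches of this length, 7.25% held an NF-kappaB match, 6.75% an AP-1 match and 9.56% a C/EBP match. Of the 10 genes, 9 were listed by RefSeq with a stretch. Counted over any start listed for a gene, Nlrp3 and Casp4 held an NF-kappaB match and Il1a and Il1rn an AP-1 match. C/EBP matched in 0 of the 9. Nlrp3 had its match before its second listed start and 0 before the first. Il1rn has 3 listed starts and Nlrp3 and Casp4 have 2 each, so these gene counts and the shares per stretch have unlike bases. A match is a description of letters and not a binding site.

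A few features of the libraries bear on the values. Total counts ran from 15.91 M to 168.4 M in the LPS experiment and from 58.54 M to 318.5 M in the sex experiment, where M is mega. A level in CPM divides a count by the scaled library total in M. P2ry12 was lower in KO than in WT at ns by 2.62 on the log2 scale (edgeR adjusted p = 1.74e-08), and lower in KO males and females (log2 fold change -3.34 and -3.50). The number of a library in the LPS experiment is the second of the paired numbers in its name, as in 1-2. The 4 WT libraries of number 2 went against their labels in Saa3. The acute-phase gene Saa3 was at 1781 CPM in the library labelled WT ns 1 and at 2491 in that labelled WT ns 5. The other 6 WT ns libraries were at 1.52 to 64.4 CPM, where WT ns 8 was the highest and the next was at 4.17. Saa3 was at 1.59 CPM in the library labelled WT LPS 1 and at 3.21 in that labelled WT LPS 6. The other WT LPS libraries were at 1418 CPM or above. The 4 WT libraries of number 2 enter no comparison. In the sex experiment Saa3 was at 0 to 0.36 CPM in every animal. In addition, 6 libraries of the LPS experiment correlated less with the others (median r of at most 0.910, against at least 0.926), with ribosomal protein transcripts at 2.01% to 8.29% of counts against 1.05% to 1.99%. Of these, WT LPS 7, KO ns 5, KO ns 6 and KO LPS 5 were compared. The LPS fold changes and calls of the 10 genes are given with and without the 6.

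Il1r2, the decoy receptor, and Il1b had the largest fold changes after LPS, and Il18 and Gsdmd were called in neither genotype. With all libraries, 4 of the 10 genes were called higher in KO (Il1b, Il1rn, Il1r2 and Casp4) and 7 in WT (these 4 with Il1a, Il1rap and Nlrp3), and 0 were called lower. Over all genes tested, the shares called in KO were 13.1% higher and 15.2% lower, and in WT 14.8% higher and 15.5% lower. Without the 6 libraries, the same 8 genes were called higher in each genotype, all but Il18 and Gsdmd. The shares of all genes called were then 27.9% higher and 27.2% lower in KO, and 27.9% higher and 26.7% lower in WT. The median log2 fold change of the 10 genes with all libraries was 0.69 in KO and 1.30 in WT, beside -0.02 and -0.01 over all genes tested, and without the 6 it was 0.80 and 0.95. Bulk samples cannot tell more cells of a type from more RNA per cell.

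**Figure D1:**
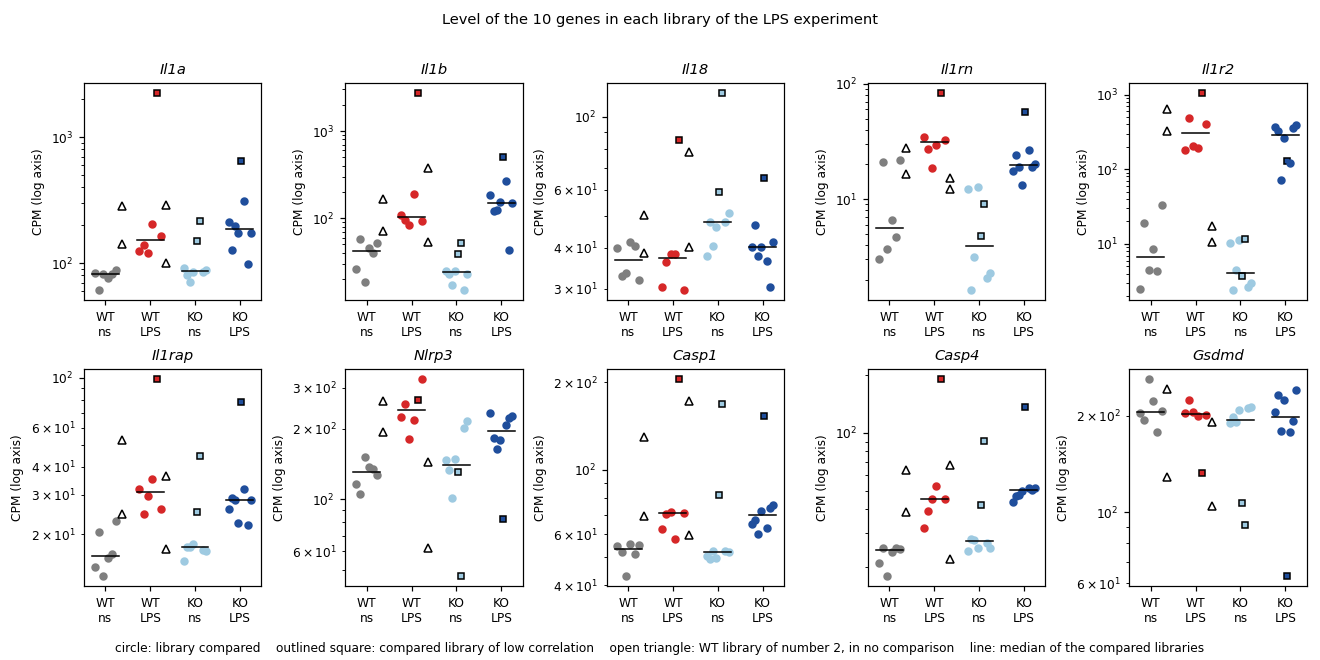
Level in CPM (log axis) of each gene in each library of the LPS experiment, by group, with the median of the compared libraries as a line. Il1r2 in the LPS groups sits at 71.9 CPM or above, over every compared ns library, and the libraries drawn as outlined squares sit away from their groups in Casp1, Casp4 and Gsdmd.

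Il1b encodes the precursor of interleukin-1 beta. In KO ns libraries it ran from 15.0 CPM through a median of 23.9 to 52.1, and in KO LPS from 43.4 through 151 to 498. The KO groups overlapped only by KO LPS 7, the lowest, under KO ns 6, the highest ns library. In WT ns it ran from 18.7 through 42.4 to 57.2 CPM, and in WT LPS from 82.9 through 102 to 2748, without overlap. Il1b rose in KO (log2 fold change 2.77, SE 0.58, adjusted p = 0.000467) and in WT (3.31, SE 0.70, adjusted p = 0.000617). WT LPS 7, with 2748 CPM, set much of the WT value. Without that library the log2 fold change was 1.60 (adjusted p = 0.00707), and without the 6 libraries it was 1.57 in WT and 2.80 in KO (adjusted p = 0.000515 and 5.08e-07). Within library set 1 it was 2.71 in KO and 1.53 in WT. Within set 2, which holds all 6 libraries, it was 3.02 and 4.37 and was not called (adjusted p = 0.0916 and 0.0533).

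Il1a encodes interleukin-1 alpha, which is active as its precursor and is released by damaged cells. Its level in KO ns ran from 70.5 CPM through 87.2 to 214, and in KO LPS from 98.9 through 185 to 650.3. In WT ns it ran from 61.2 through 82.2 to 88.9 CPM and in WT LPS from 119.9 through 152 to 2243. The WT groups did not overlap, and the KO groups overlapped through KO ns 5 and KO ns 6. The log2 fold change in KO was 1.15 (SE 0.44, adjusted p = 0.0504), just short of the threshold of 0.05, and it was 1.15 without the 6 libraries (adjusted p = 1.26e-05). Il1a rose in WT by 2.25 (SE 0.54, adjusted p = 0.00203), and by 0.97 without the 6 (adjusted p = 0.00018). The highest library, WT LPS 7, had 2243 CPM, where the next had 205.

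Il18 encodes the precursor of interleukin-18. It had a median of 47.9 CPM in KO ns and 40.1 in KO LPS, and 36.7 in WT ns and 37.2 in WT LPS. The ns and LPS groups overlapped in each genotype. The log2 fold change was -0.36 in KO (SE 0.20, adjusted p = 0.203) and 0.20 in WT (SE 0.24, adjusted p = 0.565), neither called, and without the 6 libraries they were -0.17 and -0.05.

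Il1rn encodes the antagonist of the interleukin-1 receptor. It ran from 1.63 CPM through 3.96 to 12.8 in KO ns and from 13.2 through 19.6 to 57.3 in KO LPS, without overlap. In WT ns it ran from 3.03 through 5.63 to 22.02 CPM and in WT LPS from 18.5 through 31.1 to 83.9. The WT groups overlapped because WT ns 3 was at 21.04 CPM and WT ns 8 at 22.02, against WT LPS 4 at 18.5. Il1rn rose in KO (log2 fold change 1.97, SE 0.48, adjusted p = 0.00234) and in WT (1.86, SE 0.54, adjusted p = 0.0099). Without the 6 libraries it was 1.87 and 1.53 and remained called (adjusted p = 0.00686 and 0.0257). In library set 1 alone it was 1.33 and 1.59 and was not called (adjusted p = 0.158 and 0.152).

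Il1r2, the decoy receptor, showed the largest fold change of the 10 in each genotype. It ran from 2.42 CPM through 4.11 to 11.6 in KO ns and from 71.9 through 291 to 395 in KO LPS. In WT ns it ran from 2.50 through 6.60 to 33.5 CPM and in WT LPS from 178 through 306 to 1056. The ns and LPS groups did not overlap in either genotype. The log2 fold change was 5.34 in KO (SE 0.59, adjusted p = 5.33e-08), a 40.5-fold rise, and 5.12 in WT (SE 0.68, adjusted p = 1.2e-06), a 34.8-fold rise. Without the 6 libraries it was 5.57 and 4.67. It was called within each library set by itself in each genotype, at 5.17 and 5.73 in KO and at 5.14 and 5.13 in WT. The library labelled WT ns 1 had 320.1 CPM and that labelled WT ns 5 had 631, inside the range of the WT LPS libraries. The library labelled WT LPS 1 had 10.6 CPM and that labelled WT LPS 6 had 17.6, inside the range of the WT ns libraries.

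Il1rap encodes the accessory chain needed for interleukin-1 signalling. Its median was 17.6 CPM in KO ns and 28.5 in KO LPS, and 16.0 in WT ns and 30.8 in WT LPS. Il1rap rose in WT (log2 fold change 1.19, SE 0.30, adjusted p = 0.00329), and by 0.83 without the 6 libraries (adjusted p = 6.05e-06). In KO the log2 fold change was 0.63 (SE 0.26, adjusted p = 0.0671), not called, and 0.68 without the 6 libraries (adjusted p = 2.83e-05). In KO the groups overlapped through KO ns 5 and KO ns 6, at 25.2 and 44.9 CPM, while the other KO ns libraries reached at most 18.2.

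**Figure D2:**
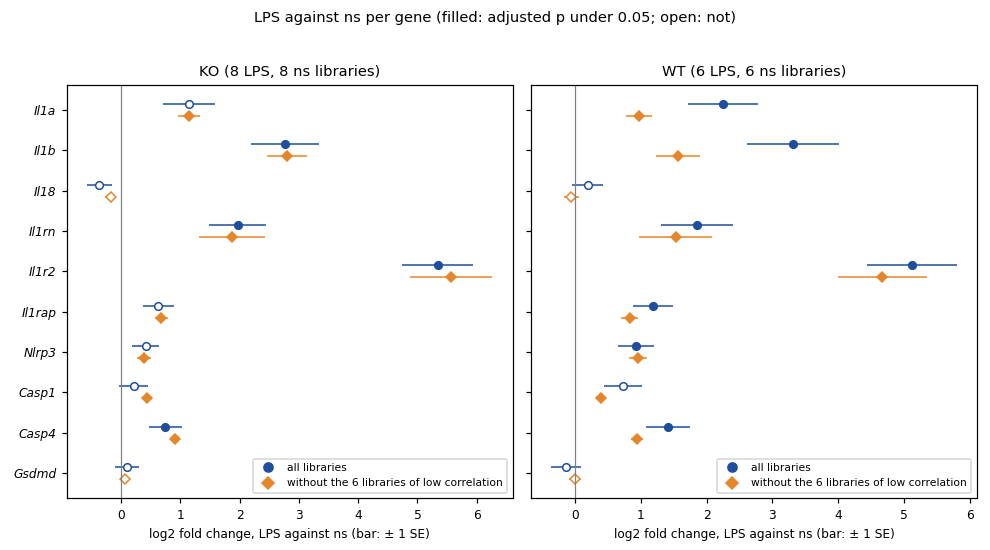
Log2 fold change of LPS against ns (horizontal axis) for each gene in KO and WT, with bars of 1 SE, for all libraries and without the 6 libraries of low correlation. Il1r2 lies farthest right in each panel, and the 6 libraries move Il1a and Il1b in WT from 2.25 and 3.31 to 0.97 and 1.57.

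The sensor Nlrp3 ran from 106 CPM through 131 to 151 in WT ns and from 182 through 239.8 to 327 in WT LPS, without overlap. It rose in WT (log2 fold change 0.93, SE 0.27, adjusted p = 0.00916), and by 0.96 without the 6 libraries (adjusted p = 2.3e-06). In KO ns it ran from 47.1 through 140.2 to 215 CPM and in KO LPS from 82.6 through 196 to 234, with overlap. The KO log2 fold change was 0.42 (SE 0.23, adjusted p = 0.196), not called, and 0.39 without the 6 libraries (adjusted p = 0.0107). The libraries KO ns 6 and KO LPS 5 were the lowest of their groups.

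Casp1 encodes the caspase that cleaves the interleukin-1 beta precursor. It was at 43.1 to 55.5 CPM in WT ns and 57.6 to 206 in WT LPS, without overlap. With all libraries the log2 fold change was 0.73 in WT (SE 0.29, adjusted p = 0.0529) and 0.21 in KO (SE 0.25, adjusted p = 0.584), neither called. Without the 6 libraries it was 0.41 and 0.44, and was called in each (adjusted p = 3.96e-05 and 4.67e-06).

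Casp4 encodes the caspase that senses cytosolic LPS. It ran from 17.9 CPM through 24.3 to 25.1 in WT ns and from 31.97 through 44.99 to 191 in WT LPS. In KO ns it ran from 24.1 through 27.3 to 90.1 CPM and in KO LPS from 43.4 through 50.1 to 136. Casp4 rose in WT (log2 fold change 1.41, SE 0.33, adjusted p = 0.00177) and in KO (0.75, SE 0.28, adjusted p = 0.0468). The KO call is close to the threshold. It remained in 11 of 28 fits that left out 1 library each, and without KO LPS 5 the log2 fold change was 0.57 (adjusted p = 0.126). Without the 6 libraries Casp4 rose by 0.95 in WT and by 0.91 in KO (adjusted p = 6.3e-09 and 3.35e-09). The other KO libraries were then at 24.1 to 27.9 CPM at ns and 43.4 to 51.8 under LPS.

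Gsdmd, the pore-forming substrate of these caspases, had a median of 194 CPM in KO ns, 198 in KO LPS, 205 in WT ns and 202 in WT LPS. The groups overlapped in each genotype. The log2 fold change was 0.10 in KO (SE 0.20, adjusted p = 0.755) and -0.13 in WT (SE 0.23, adjusted p = 0.722). The 95% confidence intervals ran from -0.30 to 0.51 in KO and from -0.59 to 0.34 in WT. Gsdmd had 0.07 without the 6 libraries in KO and 0.0011 in WT (adjusted p = 0.465 and 0.993).

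Neutrophils are known to carry Il1r2, Il1rn and Il1b, and the markers of these and other cells were summed in each library. The 11 neutrophil markers, of which 0 were at 0 counts in any library, summed to 1091 to 10370 CPM in KO ns and 2099 to 5108 in KO LPS. They summed to 1887 to 19490 CPM in WT ns and 2499 to 13750 in WT LPS. In LPS against ns, 0 of the 11 passed as higher in KO and 0 in WT, and 0 and 1 as lower. Their median log2 fold change was -0.37 in KO and -0.42 in WT. Among all genes tested, 13.1% passed as higher in KO and 14.8% in WT, and 15.2% and 15.5% as lower. At such shares few of 11 genes would pass in any case, so these counts do not show that the markers were unchanged. The part of neutrophils in the LPS results was not tested. Among ns libraries, WT ns 3 and WT ns 8 had the highest neutrophil sums, 19490 and 18250 CPM, and the highest Il1r2 and Il1rn of WT ns. WT LPS 7 had the highest neutrophil and monocyte sums of WT LPS, 13750 and 2699 CPM, and the highest Il1a, Il1b, Il1r2 and Il1rn there. KO ns 6 had the highest of both sums in KO ns, 10370 and 1306 CPM. Among compared libraries, WT LPS 7 and KO ns 6 also had the highest lymphocyte marker sums of their groups (41.0 and 68.9 CPM). The same held for endothelial markers (88.5 and 107.7 CPM), but not for markers of border macrophages or of neurons and glia. The highest neutrophil and monocyte sums in KO LPS were those of KO LPS 1, which was the highest there in none of Il1a, Il1b, Il1r2 and Il1rn. The part of such cells in these levels was not tested. The summed 7 monocyte markers were at 129 to 1306 CPM in KO ns, 295 to 725 in KO LPS, 203 to 1933 in WT ns and 382 to 2699 in WT LPS. Of the 10 microglia markers, 7 were called lower after LPS in each genotype, beside 15.2% of all genes in KO and 15.5% in WT. The marker sums were 33430 to 52930 CPM in KO ns, where KO ns 6 was the highest, and 21270 to 27140 in KO LPS, which did not overlap. In WT the sums were 23340 to 40090 CPM at ns and 16800 to 25760 under LPS, which overlapped.

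**Figure D3:**
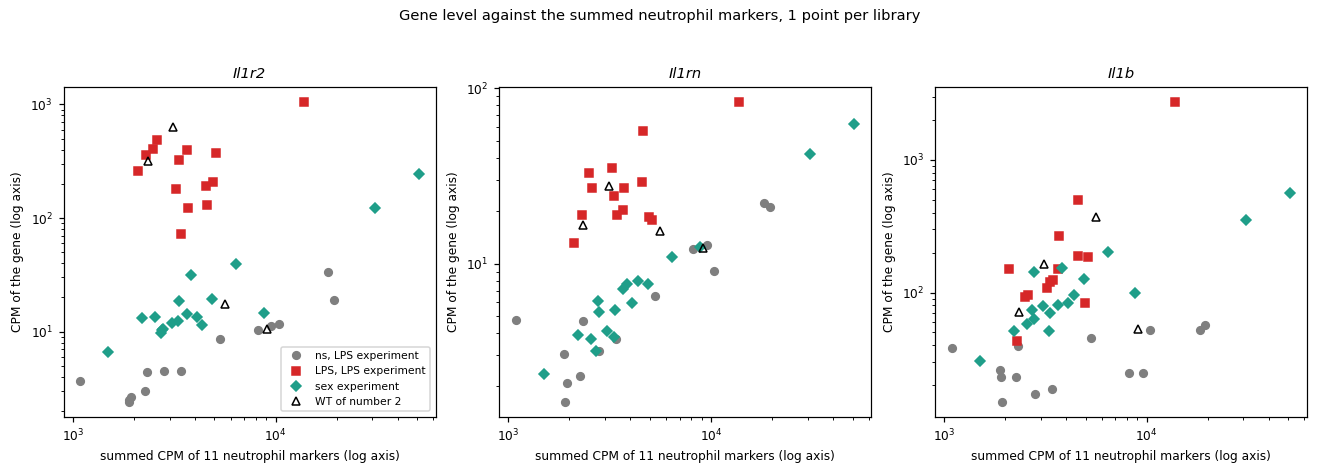
Level of Il1r2, Il1rn and Il1b (CPM, log axis) against the summed CPM of 11 neutrophil markers (log axis), 1 point per library of each experiment. In Il1r2 the compared LPS libraries (squares) lie above the compared ns libraries (circles), the WT libraries of number 2 (triangles) lie the other way round by their labels, and the 2 rightmost points of the sex experiment are male WT 5 and female WT 2.

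Genes called among the rest of the pathway lay in both directions, and their counts are read beside the shares of all genes called after LPS, given above. Of 14 other interleukin-1 family ligands and receptors, 10 were in the table and 7 were tested. In KO 2 of the 7 rose and 2 fell, and in WT 1 rose and 3 fell. Il18bp, the soluble binding protein that neutralises interleukin-18, rose by 1.77 in KO and by 1.37 in WT (edgeR adjusted p = 4.97e-09 and 4.11e-06). Il18rap, the accessory chain of the interleukin-18 receptor, rose by 1.36 in KO (adjusted p = 0.00433) and had a log2 fold change of 0.64 in WT (adjusted p = 0.245), and 0.76 there without the 6 libraries (adjusted p = 0.185). Il1rl1, the receptor of interleukin-33, fell by 1.17 in KO and by 1.28 in WT. Il18r1, the ligand-binding chain of the interleukin-18 receptor, fell by 0.95 and by 1.63. Once the 6 libraries were left out, 3 of the 7 rose and 2 fell in KO, while 2 rose and 3 fell in WT. The gene added in each was Il1r1, the ligand-binding chain of the interleukin-1 receptor, at 0.80 and 0.91 (adjusted p = 0.0172 and 0.0112), chosen after its values were seen.

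Of 12 interleukin-1 receptor signalling proteins, in KO 4 rose and 1 fell, and in WT 3 rose and 1 fell. Irak3, an inhibitory member of the interleukin-1 receptor-associated kinases, rose by 2.20 in KO and by 2.31 in WT. Peli1, a ubiquitin ligase, rose by 0.85 and by 1.36. The adaptor Myd88 rose by 0.62 and by 0.66. Irak4 rose by 0.57 in KO (adjusted p = 0.0495) and had 0.19 in WT (adjusted p = 0.604), while without the 6 libraries it rose by 0.53 and by 0.42 (adjusted p = 8.76e-09 and 9.01e-07). Tab2, an adaptor of the kinase TAK1, fell by 0.42 and by 0.56. The list's median log2 fold change was 0.19 in KO and 0.06 in WT. With the 6 left out, in KO 5 of the 12 rose and 3 fell, and in WT 6 rose and 2 fell, with medians of 0.10 and 0.17.

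Of 28 other inflammasome sensors, adaptors and pyroptosis genes, 24 were tested. In KO 5 rose and 5 fell, and in WT 4 rose and 8 fell. Nlrc5 rose by 2.26 in KO and by 1.52 in WT, and Naip2, a sensor of bacterial proteins, by 1.35 and by 1.18. Panx1, a membrane channel, rose by 0.58 and by 0.83. Nlrx1 and Naip6 rose by 1.42 and 0.62 in KO and had 0.80 and 0.33 in WT, not called. Both were called in WT without the 6 libraries, at 1.08 and 0.42 (adjusted p = 1.76e-06 and 0.00716). Casp12 fell by 1.47 in KO and by 1.21 in WT, Txnip, a thioredoxin-binding protein that can bind NLRP3, by 1.26 and by 0.98, and Nlrc4, an inflammasome component, by 1.18 and by 1.73. Gsdme, another gasdermin, fell by 0.71 and by 0.84, and Nek7, a partner of NLRP3, fell by 0.46 in KO (adjusted p = 0.0339) and had -0.47 in WT (adjusted p = 0.0595), where it was called without the 6 libraries at -0.41 (adjusted p = 0.00102). Without the 6 libraries, in KO 9 of the 24 rose and 8 fell, and in WT 8 rose and 9 fell.

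KO and WT did not differ by the test in any of the 10 genes, at ns or under LPS. In edgeR 0 of 10 were called at ns, where 0.0883% of all genes were, and 0 of 10 under LPS, where 0.0946% of all genes were. At an unadjusted p under 0.05 there was 1 of the 10 at ns and 0 under LPS, where 8.92% and 6.04% of all genes lay under it, and DESeq2 called 0 of 10 in each. The smallest p at ns was that of Il18, whose log2 fold change of KO against WT was 0.57 (SE 0.22, adjusted p = 0.471). Il18 was at 37.9 to 118 CPM in KO ns and 31.9 to 41.6 in WT ns, which overlapped, and without the 6 libraries it was 0.30 (adjusted p = 0.251). Under LPS, Il1b had a log2 fold change of -1.10 (SE 0.60, adjusted p = 0.869) and Il1a -0.75 (SE 0.48, adjusted p = 0.939). Both values turned positive without WT LPS 7, at 0.71 and 0.64 (adjusted p = 0.982 for each), and without the 6 libraries, at 0.39 and 0.29.

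The difference between the LPS responses of KO and WT was tested as an interaction. It was called for 0 of 10 genes and for 0% of all genes tested. At an unadjusted p under 0.05 there were 0 of the 10 and 4.77% of all genes. DESeq2, and edgeR without the 6 libraries, called 0 of 10. Il1r2 differed between the responses by 0.22 (95% confidence interval -1.32 to 1.77) and Il1b by -0.53 (-2.26 to 1.19). Il1a differed by -1.10 (-2.49 to 0.28), Il1rap by -0.56 (-1.36 to 0.25) and Nlrp3 by -0.51 (-1.24 to 0.21), each toward a smaller rise in KO. These intervals include 0 and also differences of more than 1 on the log2 scale. A call in WT and not in KO, as for Il1a, Il1rap and Nlrp3, therefore does not show that the responses differ.

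**Figure D4:**
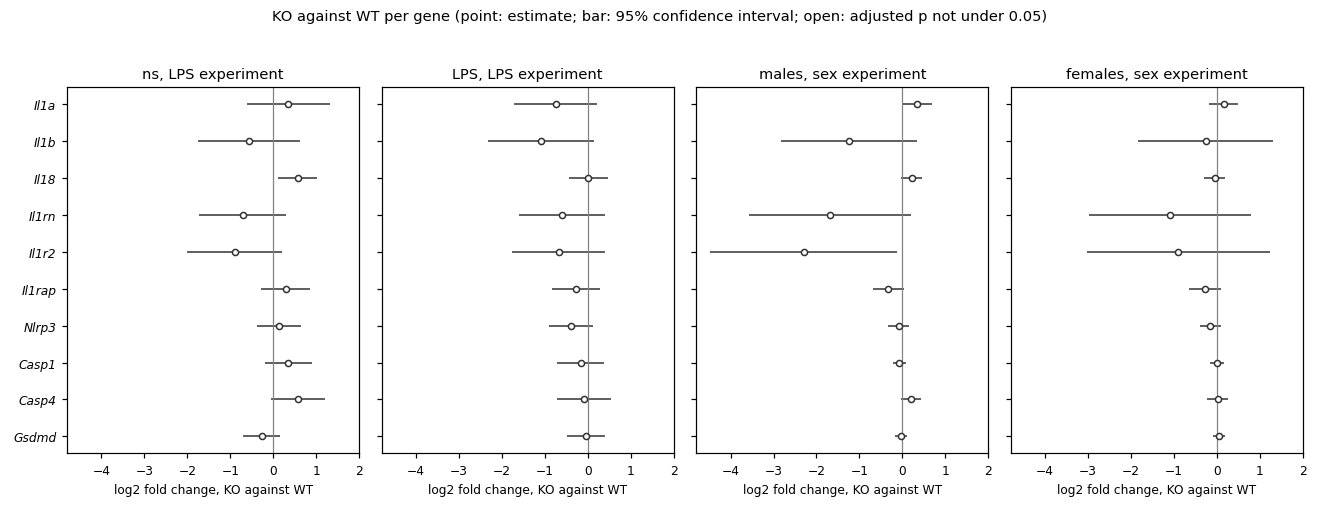
Log2 fold change of KO against WT (horizontal axis) with its 95% confidence interval for each gene, at ns and under LPS in the LPS experiment and in males and females of the sex experiment. No interval belongs to a called gene, and the intervals of Il1rn and Il1r2 in the sex experiment are the widest, that of Il1r2 in males running from -4.48 to -0.12.

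In the sex experiment KO and WT were compared in each sex. In edgeR 0 of 10 genes were called in males, females or their average, where 0.00946%, 0.164% and 0.432% of all genes were called. At an unadjusted p under 0.05 there were 2 of 10 genes in males, 0 in females and 4 in the average, beside 6.85%, 5.22% and 9.02% of all genes. DESeq2 and each fit without 1 animal also called 0 of 10. Of the other interleukin-1 genes, Peli1 was called higher in KO averaged over the sexes, by 0.32 (adjusted p = 0.0256). It was chosen after its values were seen.

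Il1r2 in males was at 9.78, 10.3, 14.7 and 242 CPM in WT, and at 11.5, 12.0, 13.6, 14.3 and 19.2 in KO. The highest was male WT 5. In females it was at 6.62, 13.2, 18.5 and 122 CPM in WT, and at 10.6, 12.4, 13.5, 31.3 and 39.7 in KO. The highest was female WT 2. Genotypes overlapped in each sex. The log2 fold change of KO against WT was -2.30 in males (SE 1.02, adjusted p = 0.719) and -0.90 in females (SE 1.00, adjusted p = 1). Without male WT 5 and female WT 2 it was 0.28 and 0.75 (adjusted p = 1 and 0.811).

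Il1rn in males was at 3.16, 6.09, 12.4 and 62.8 CPM in WT and 4.13 to 7.97 in KO. In females it was at 2.33, 3.89, 5.45 and 42.0 CPM in WT and 3.69 to 11.0 in KO. Male WT 5 and female WT 2 were again the highest of all 18 animals. The log2 fold change in males was -1.69 (SE 0.88, adjusted p = 0.724) and -0.14 without these animals. Il1b was at 73.7, 99.5, 144 and 565 CPM in male WT and 78.9 to 126 in male KO, with a log2 fold change of -1.25 (SE 0.74, adjusted p = 0.767), and -0.19 without the pair. In females Il1b was at 30.4, 51.5, 69.8 and 355 CPM in WT and 51.1 to 202 in KO.

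Male WT 5 and female WT 2 were high in markers of other cells. Their summed neutrophil markers were 50860 and 30840 CPM, where the other animals had 1499 to 8782, and their monocyte markers 3965 and 2199 CPM. No neutrophil marker of the 11 was at 0 in any animal. The part of these cells in the levels of Il1r2, Il1rn and Il1b was not tested.

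**Figure D5:**
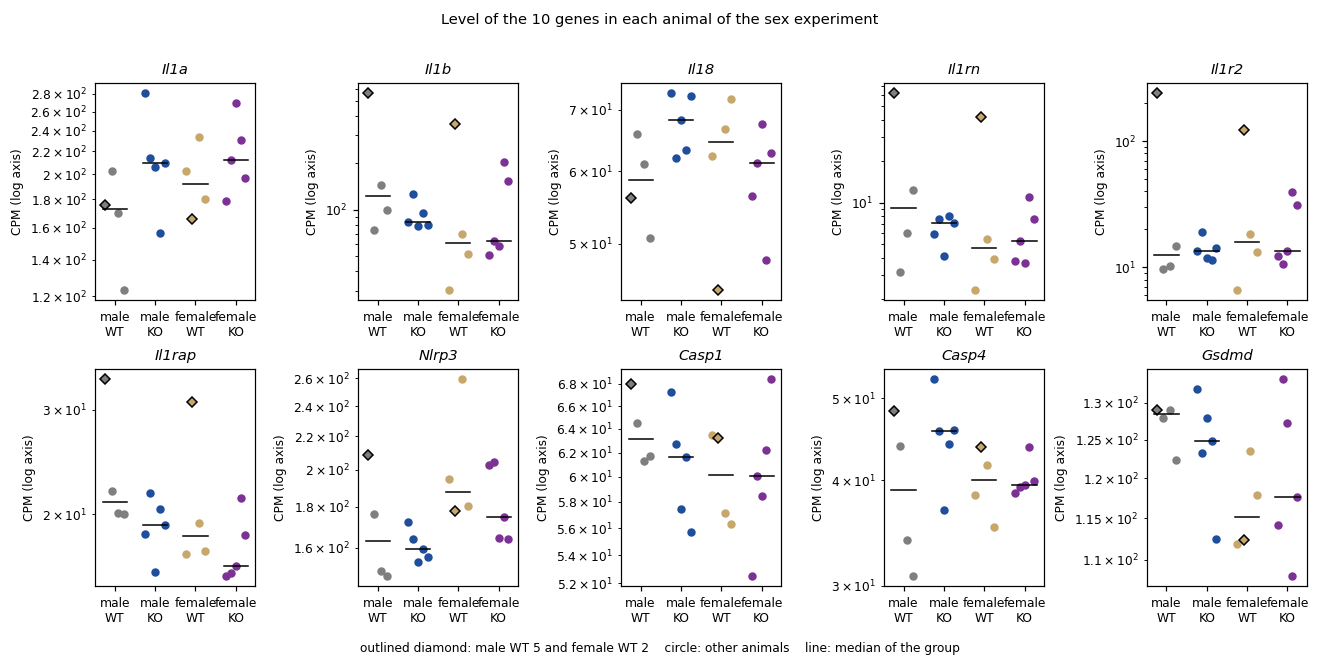
Level in CPM (log axis) of each gene in each animal of the sex experiment, by sex and genotype, with the group median as a line. Male WT 5 and female WT 2 (diamonds) reach 242 and 122 CPM of Il1r2, where every other animal is at 39.7 or below, and Casp1 and Gsdmd vary little among all 18 animals.

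The other 7 genes varied less. Il1a was at 123 to 203 CPM in male WT and 157 to 281 in male KO, with a log2 fold change of 0.35 (SE 0.16, adjusted p = 0.719). Il18 was at 44.5 to 73.0 CPM over all 18 animals, Casp1 at 52.5 to 68.5 and Gsdmd at 108 to 133. Casp4 was at 30.8 to 52.8 CPM, Nlrp3 at 148 to 259.5 and Il1rap at 15.7 to 33.9, where the 2 highest in Il1rap were male WT 5 and female WT 2. The 95% confidence intervals of KO against WT in males ran from -0.23 to 0.09 for Casp1 and from -0.18 to 0.11 for Gsdmd.

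Females and males were compared averaged over genotypes. Of the 10 genes 0 were called higher and 0 lower, where 0.628% and 0.233% of all genes were. Nlrp3 had the smallest p, with a log2 fold change of 0.22 (SE 0.08, adjusted p = 0.284). The difference between the sexes in the KO effect was called for 0 of 10 genes and 0% of all genes. Of the related genes, Il1rapl1 was called higher in females, by 1.37 (adjusted p = 0.0117), and was chosen after its values were seen. It was the 1 gene called of 12 tested on its list. In the LPS experiment Il1rapl1 was near the floor, at 0 to 0.09 CPM.

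Across the 32 samples of the LPS experiment, the genes most like each member by Pearson r of log2 CPM were ranked. The first is given for 9 of the 10 genes, with further ones for some. These samples share the LPS groups and the libraries of low correlation, and the r is a description. Il1r2 was most like C5ar1 (r = 0.962), the receptor of complement C5a. Il1rn was most like Pilrb2 (0.968), Mcemp1 and Fpr2, a formyl peptide receptor (0.963 each). Il1b was most like Ifi205 (0.947) and Il1a like the lectin receptor Clec5a (0.959). Casp4 was most like Nampt (0.972), an enzyme of NAD synthesis. Nlrp3 had the lowest best match, Sgf29 (0.897), followed by the transcription factor Ets2 (0.893). Il18 was most like Pon3 (0.950), Casp1 like the respiratory-chain gene Ndufa5 (0.979) and Gsdmd like Rps6kb2 (0.981).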

How the data were processed

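RNA was sequenced from polyadenylated RNA of CD11b-positive cells. The deposited values are raw read counts per gene, 1 table per experiment. Per the submitters' processing notes, FastQC, STAR 2.6.1, featureCounts from Subread and DESeq2 were used with the build GRCm39; the strand setting is not given in the sources used here. The deposited table of the sex experiment also holds gene coordinates, used only for positions. Low counts were even in 79.0% to 89.2% of cases in a library of the sex experiment and in 39.7% to 45.6% in the LPS experiment, so the tables were fitted apart, and levels are not compared across them. The labels list 57 libraries, of which 6 repeat libraries of the sex experiment have no column and were not analysed here.

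Here counts were filtered with filterByExpr, scaled by TMM and tested with the quasi-likelihood test of edgeR 4.0.16 in R 4.3.3, with robust dispersion, 1 mean per group and, in the LPS experiment, the library set as covariate. The library sets split the first of the paired numbers in the library names into lower (set 1) and upper values (set 2). Each first number holds 1 group, so it cannot be told apart from genotype and treatment. P-values were adjusted by Benjamini-Hochberg over all genes tested, and a gene is called at an adjusted p under 0.05. The SE of a log2 fold change is its size over the root of F. CPM uses the TMM-scaled total. WT LPS 8 and WT LPS 9 differed by 1.86 times sampling noise, other pairs of that experiment by at least 8.32 times, and were summed as 1 sample, a judgement made on the counts. WT libraries of number 2 were fitted as groups of their own. The code was tested on simulated data. Matches to the interferon-stimulated response element and to motifs of PU.1, STAT factors and hypoxia were also looked for before the motifs were settled, and are not reported.

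Alternatives were DESeq2 1.42.0, RLE scaling, other filters, a replicate block, other uses of the number 2 libraries and library sets, and each animal left out. Added after seeing the data were the fits without the 6 libraries of low correlation, without male WT 5 and female WT 2, and without each compared library of the LPS experiment. Named genes are the 10, the related genes called in KO after LPS (at most 5 per direction and list), P2ry12, Saa3, and the most alike genes by Pearson r, of which some are not reported here. Il1r1, Peli1 in the sex experiment and Il1rapl1 were chosen after their values were seen. The members and lists were chosen with earlier results of these data known.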

Additional observations from a re-analysis of the deposited data

Results flagged for a closer look

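Within groups of 4 to 8 samples, 31 member levels lay apart from the rest of their group, over 80 pairs of gene and group. Chance alone would flag about 1 in 20 groups of this size if values were normal and independent. Here the same libraries recur over the genes and CPM were used untransformed, so that rate need not hold. A value is named where the gap to its nearest neighbour exceeds Dixon's 95% critical share of the group's range. Most belong to libraries already named as correlating less with the others, or to the animals with high neutrophil markers.

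WT LPS 7 was the highest of its group in Il1a (2243 CPM, next 205), Il1b (2748), Il18 (85.2), Il1rn (83.9), Il1r2 (1056), Il1rap (99.2), Casp1 (206) and Casp4 (191), and the lowest in Gsdmd (132). KO LPS 5 was the highest in Il1a (650.3), Il1rn (57.3), Il1rap (78.4), Casp1 (153) and Casp4 (136), and the lowest in Nlrp3 (82.6) and Gsdmd (63.2). KO ns 6 was the highest in Il18 (118), Il1rap (44.9), Casp1 (169) and Casp4 (90.1), and WT ns 4 the lowest in Casp1 (43.1).

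In the sex experiment male WT 5 was the highest of its group in Il1b (565), Il1rn (62.8), Il1r2 (242) and Il1rap (33.9). Female WT 2 was the highest of its group in Il1b (355), Il1rn (42.0), Il1r2 (122) and Il1rap (30.9). Female KO 4 was the highest in Casp4 (43.8), and male WT 4 the lowest in Gsdmd (122).

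The WT libraries of number 2 were in no comparison. Against the highest of the other 6 WT ns libraries, 7 of the 10 genes were higher in the library labelled WT ns 1 and 9 of 10 in the library labelled WT ns 5. The share of all genes above that level was not computed, so these counts are not read as a trait of the 10 genes. The library labelled WT ns 5 is also 1 of the 6 libraries of low correlation.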

How the results depend on the processing

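In KO the number of the 10 genes called after LPS moved from 4 to 7 in library set 1 alone. It moved to 2 in set 2 alone and to 8 without the 6 libraries of low correlation. In these fits 44.9%, 4.65% and 55.0% of all genes were called, against 28.3%. Over fits that left out 1 library each it ran from 3 to 6, where 25.7% to 31.8% of all genes were called. In WT the count moved from 7 to 0 with the WT libraries of number 2 in their labelled groups. It was 1 in set 2 alone. In these fits 0% and 3.62% of all genes were called, against 30.3%. The WT count ran from 7 to 8 over the leave-one-out fits, where 24.7% to 35% of all genes were called. The direction of Il18 in WT turned to -0.0507 without the 6 libraries and ran from -0.0189 (without WT LPS 7) to 0.305 over the leave-one-out fits, and that of Gsdmd in WT to 0.0011 without the 6. Under LPS, KO against WT turned for Il1a to 0.46 in set 1 alone, 0.29 without the 6 and 0.64 without WT LPS 7, and for Il1b to 0.595, 0.391 and 0.71. Their leave-one-out values ran from -1.02 to 0.636 for Il1a and from -1.34 to 0.71 for Il1b. In males Il1r2 turned to 0.282 without male WT 5 and female WT 2, and ran from -2.66 to 0.281 (without male WT 5) over the leave-one-out fits. Averaged over the sexes, Il1rn and Il1r2 turned to 0.28 and 0.52 without that pair. None of these turned values was called, and the cause was not tested.

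The replicate block called 6 of 10 genes in KO and 8 in WT after LPS, with 34.2% and 35.6% of all genes, and 0 in every other comparison. Deviations of same-numbered samples correlated with a mean r of 0.20 (-0.22 to 0.78) in the LPS experiment, against 0.01 for other pairs. In the sex experiment the mean r was 0.12 (-0.05 to 0.35), against -0.03 for other pairs. Same-numbered samples were thus more alike on average. In the LPS experiment these pairs also share a library set, while the other pairs include pairs across sets. The compared libraries of low correlation all lie in the same set. Number was not tested apart from set or low correlation, so whether the numbers pair samples is not settled. The labels state no pairing, and the main fits used none. No fit of KO against WT, the interactions or the sexes called any of the 10, over all alternatives run, leave-one-out fits included. Groups of 4 to 8 samples, and a biological coefficient of variation of 41.0% and 35.3%, limit what can be detected.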
